A study of Mus musculus with 6 samples.

Results

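The brush border genes described here are 9 genes whose products build or anchor the microvilli of the intestinal absorptive cell or lie at its surface. They are the actin-bundling protein villin (Vil1) and the motor Myo1a, the protocadherin Cdhr5 and its scaffold harmonin (Ush1c), the liver-intestine cadherin Cdh17, the galectin Lgals4, and the surface hydrolases Sis, Lct and Anpep. They were taken by gene symbol from the 34365 probe sets and 24647 named genes of the arrays, and each of the 9 was represented by exactly 1 probe set. Of the 9 genes, 1 rose in *K14-Cdx2::L2-IL-1β* nodules relative to *L2-IL-1β* nodules (Cdhr5, 7.18-fold) and none fell, at a threshold (limma, adjusted p under 0.10) that called 0.576% of all probe sets higher and 1.26% lower. The other 8 did not pass the test, and their log2 fold changes lay between 0.00 and 0.79.

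The samples were metaplastic nodules from the SCJ (squamo-columnar junction), the border between the keratinised forestomach and the glandular stomach. The nodules were removed whole from C57/BL6 mice that had received deoxycholic acid (DCA, a bile acid) at 0.2% for 12 months from 8 weeks of age. In *K14-Cdx2::L2-IL-1β* mice (samples 52540, 52541 and 52542), the keratin 14 promoter of basal squamous cells drives Cdx2, a transcription factor of the intestine, and the IL-1β transgene is present as well. *L2-IL-1β* mice (samples 52543, 52544 and 52545) carry the IL-1β transgene alone, which makes the human cytokine under a viral promoter (L2, of Epstein-Barr virus) active in squamous lining from the mouth to the forestomach. IL-1β and DCA were therefore common to both groups, and the comparison addresses what the Cdx2 transgene adds. No nodule without either transgene was compared. The study counts 3 biological replicates per genotype, but the sources used here do not say whether each sample came from 1 mouse or more. The p-values therefore set the difference between genotypes against the variation among these 6 samples.

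In the small intestine, a microvillus is a bundle of actin filaments cross-linked by villin, plastin and espin and tied to the membrane by Myo1a. Protocadherins at the tips of neighbouring microvilli bind one another, Cdhr2 on one to Cdhr5 on the next, and harmonin, Anks4b, Myo7b and Calml4 hold their cytoplasmic tails. The finished surface carries disaccharidases and peptidases, of which sucrase-isomaltase and lactase are textbook signs of a differentiated enterocyte. Cdx2 is a principal activator of this programme in the intestine, and its binding element was first described in the sucrase-isomaltase promoter. Villin and Anpep are also made outside the intestine, for instance in the tubules of the kidney.

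The deposited values are log2 intensities, and the array medians lay between 6.62 and 6.65. Because the 9 probe sets differ in how brightly they report a given amount of RNA, levels are compared between samples within a gene and never between genes. Each probe set summarises between 19 (Anpep) and 41 (Sis) probes along the transcript. Over all 34365 probe sets, sample 52540 correlated with its own genotype at a mean r of 0.987 and with the *L2-IL-1β* samples at 0.990, so that it lay as near to the other genotype as to its own. Sample 52542 had high readings of pancreatic acinar genes, as with Cpa1, a carboxypeptidase of zymogen granules, at 6.64, 6.51 and 11.27 in *K14-Cdx2::L2-IL-1β* samples 52540, 52541 and 52542 against 6.57, 6.57 and 6.67 in *L2-IL-1β* samples 52543, 52544 and 52545. The squamous markers Krt5 (13.2 to 13.3 in *K14-Cdx2::L2-IL-1β* samples, 13.5 in *L2-IL-1β* samples) and Trp63 (11.2 to 11.5 in *K14-Cdx2::L2-IL-1β* samples, 11.5 in *L2-IL-1β* samples) and the columnar keratin Krt8 (12.0 to 13.0 in *K14-Cdx2::L2-IL-1β* samples, 11.9 to 12.4 in *L2-IL-1β* samples) were bright in every sample. The gene of the transgene, Cdx2, read 9.04, 9.72 and 9.83 in *K14-Cdx2::L2-IL-1β* nodules against 6.74, 6.87 and 6.80 in *L2-IL-1β* nodules, which gave a log2 fold change of 2.73 (SE 0.20, limma adjusted p = 0.0105).

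**Figure D1:**
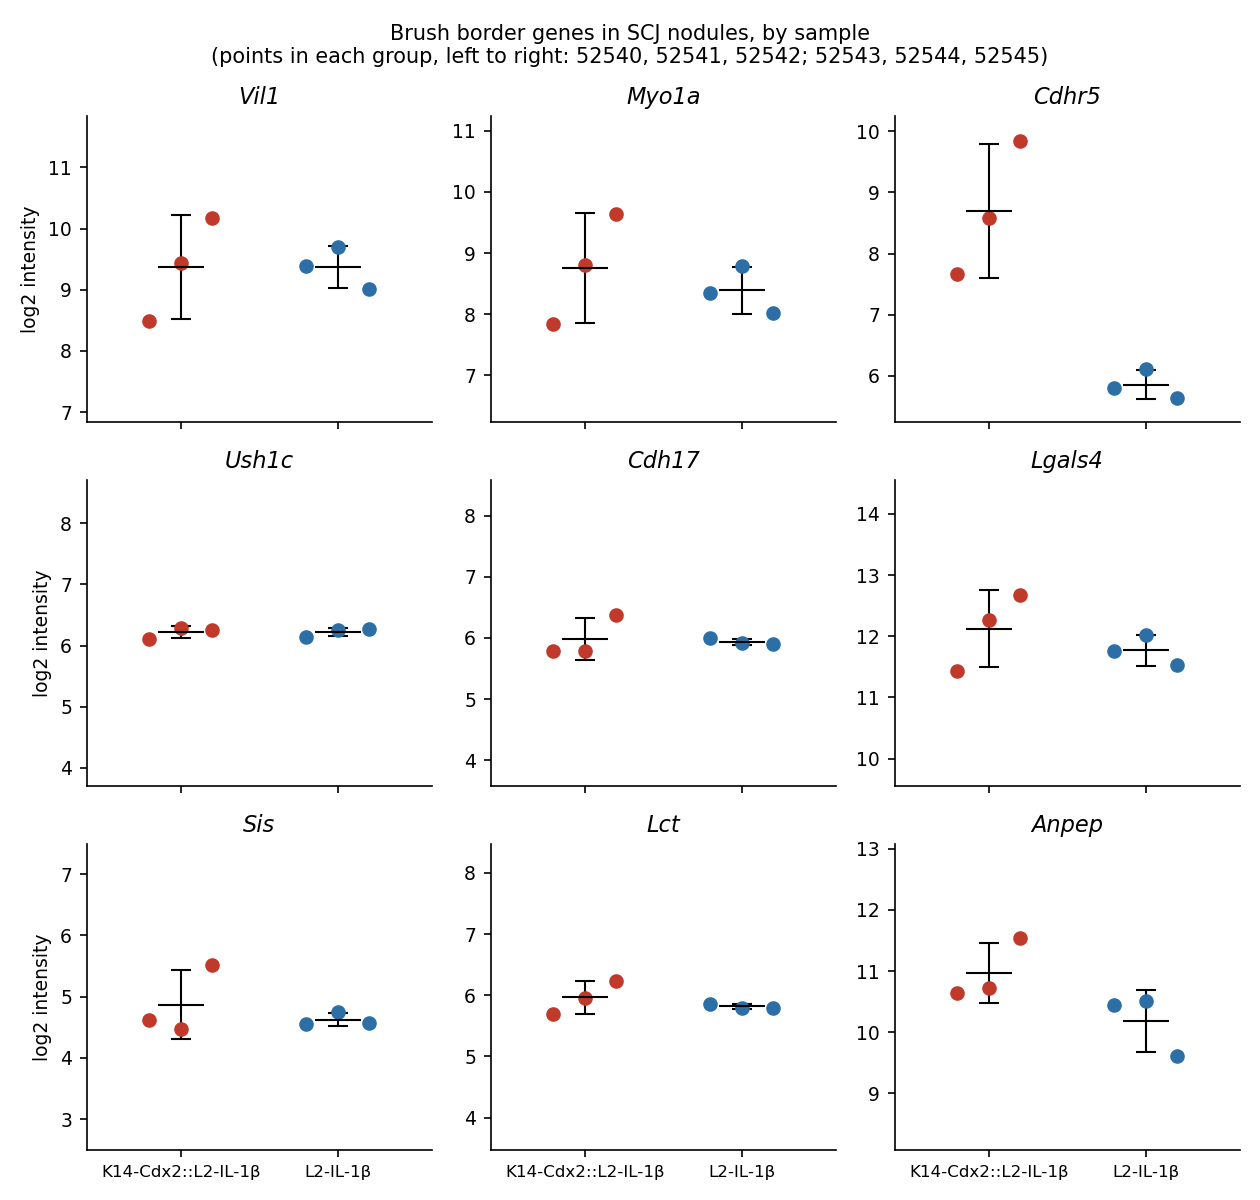
Log2 intensity (vertical axis, spanning the same number of log2 units in every panel) of each brush border gene in 3 *K14-Cdx2::L2-IL-1β* samples (left, red) and 3 *L2-IL-1β* samples (right, blue); points are samples, black bars the mean and SD. The Cdhr5 points of the genotypes lie more than 1.5 log2 units apart, whereas for 7 of the other 8 genes they overlap, and sample 52542 is the highest point in 8 of the 9 panels.

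Cdhr5, the mucin-like protocadherin of the microvillus tip, was the member that changed. Its probe set holds 27 probes on chromosome 7. Its log2 intensity was 7.66, 8.59 and 9.84 in *K14-Cdx2::L2-IL-1β* samples 52540, 52541 and 52542, against 5.80, 6.11 and 5.64 in *L2-IL-1β* samples 52543, 52544 and 52545. Every *K14-Cdx2::L2-IL-1β* sample lay above every *L2-IL-1β* sample, and the *K14-Cdx2::L2-IL-1β* samples spanned 2.18 log2 units while the *L2-IL-1β* samples spanned 0.47. The means were 8.70 ± 1.09 in *K14-Cdx2::L2-IL-1β* nodules against 5.85 ± 0.24 in *L2-IL-1β* nodules (SD, n = 3 each), a log2 fold change of 2.84 (SE 0.51, 95% interval 1.63 to 4.06). On the linear scale that is 7.18-fold, with an interval from 3.10- to 16.7-fold. The limma adjusted p over all 34365 probe sets was 0.0765, under the 10% false discovery rate used for calls. The exact two-sided permutation p was 0.10, the smallest that 3 samples against 3 can give. The *L2-IL-1β* mean lay below 6.64, the median over all probe sets of their mean level, and the *K14-Cdx2::L2-IL-1β* mean lay above it. The direction of the change held whichever sample was left out (log2 fold change 2.27 without 52542 to 3.36 without 52540). The call held without 52540 (limma adjusted p = 0.0354) and without 52542 (0.0460). It was lost without 52541 (0.205), 52543 (0.300), 52544 (0.208) or 52545 (0.219), settings in which 13 to 72 probe sets passed over the whole array, against 631 with all samples. Because whole nodules were measured, more cells that make Cdhr5 and more Cdhr5 RNA per cell cannot be told apart.

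Harmonin, encoded by Ush1c, is the scaffold that binds the tail of Cdhr5 in the microvillus tip, and its gene lies on chromosome 7 as well. Ush1c read 6.11, 6.29 and 6.25 in *K14-Cdx2::L2-IL-1β* nodules against 6.14, 6.26 and 6.27 in *L2-IL-1β* nodules. The samples of the genotypes interleaved within a span of less than 0.2 log2 units. The log2 fold change was 0.00 (SE 0.08, 95% interval -0.19 to 0.18, limma adjusted p = 0.997), so the interval ends far below the change of Cdhr5. Of the 4 other genes of the adhesion complex, none passed the test. Cdhr2, the partner protocadherin of Cdhr5, read 6.10, 6.53 and 7.13 in *K14-Cdx2::L2-IL-1β* nodules against 6.23, 6.51 and 5.91 in *L2-IL-1β* nodules (log2 change 0.37, SE 0.28, adjusted p = 0.621), so that only 52542 lay above the *L2-IL-1β* range. Calml4, the calmodulin-like light chain of Myo7b, had a log2 fold change of 0.75 (SE 0.27, adjusted p = 0.295), and Anks4b, the ankyrin-repeat scaffold, one of -0.09 (SE 0.21, adjusted p = 0.896). Ush1c and 3 of these 4 genes had mean levels below the median level of all probe sets, where a change in RNA alters the reading of an array less than it does on a bright probe set.

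Villin and Myo1a, the cross-linker and the membrane motor of the core bundle, had nearly the same pattern over the samples and no difference between genotypes that passed the test. Vil1 (chr1:74455950-74482133, plus strand, NCBIM37) read 8.49, 9.44 and 10.18 in *K14-Cdx2::L2-IL-1β* nodules against 9.38, 9.70 and 9.02 in *L2-IL-1β* nodules. Sample 52540 was the lowest of the 6 and 52542 the highest, with the *L2-IL-1β* samples between them. The means were 9.37 ± 0.85 in *K14-Cdx2::L2-IL-1β* nodules against 9.37 ± 0.34 in *L2-IL-1β* nodules (SD, n = 3 each), a log2 fold change of 0.00 (SE 0.42, 95% interval -0.99 to 1.0, limma adjusted p = 0.998). Myo1a (chr10:127142226-127157943, plus strand, NCBIM37) read 7.84, 8.81 and 9.63 in *K14-Cdx2::L2-IL-1β* nodules against 8.35, 8.79 and 8.02 in *L2-IL-1β* nodules. Again 52540 was lowest and 52542 highest. The log2 fold change was 0.37 (SE 0.44, 95% interval -0.69 to 1.43, limma adjusted p = 0.771). For both genes the interval reaches to a doubling or near it, so 3 samples per genotype cannot show that there was no change of that size, but it ends below the 2.84 of Cdhr5.

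Cdh17 and Lgals4 are lateral or apical surface proteins of intestinal epithelium: Cdh17 is a cadherin restricted largely to gut epithelium and Lgals4 a galectin that cross-links glycolipids in the apical membrane. Cdh17 (chr4:11685294-11745042, plus strand, NCBIM37) read 5.78, 5.79 and 6.37 in *K14-Cdx2::L2-IL-1β* nodules against 5.99, 5.92 and 5.90 in *L2-IL-1β* nodules. Only 52542 exceeded the *L2-IL-1β* samples, and the other *K14-Cdx2::L2-IL-1β* samples lay below all of them. The log2 fold change was 0.04 (SE 0.16, 95% interval -0.35 to 0.44, limma adjusted p = 0.940). Lgals4 (chr7:29618994-29626722, plus strand, NCBIM37) read 11.43, 12.27 and 12.67 in *K14-Cdx2::L2-IL-1β* nodules against 11.75, 12.03 and 11.53 in *L2-IL-1β* nodules. Samples 52541 and 52542 lay above every *L2-IL-1β* sample and 52540 below every one. The log2 fold change was 0.35 (SE 0.31, 95% interval -0.39 to 1.10, limma adjusted p = 0.681).

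Of the hydrolases, the disaccharidases Sis and Lct were dim on these arrays in both genotypes. Sis, sucrase-isomaltase (chr3:72692479-72771785, minus strand, NCBIM37), read 4.62, 4.47 and 5.51 in *K14-Cdx2::L2-IL-1β* nodules against 4.55, 4.75 and 4.58 in *L2-IL-1β* nodules, with 52542 alone above the rest. Its log2 fold change was 0.24 (SE 0.26, 95% interval -0.39 to 0.88, limma adjusted p = 0.746). Lct, lactase, which splits milk sugar (chr1:130181333-130224895, minus strand, NCBIM37), read 5.70, 5.96 and 6.24 in *K14-Cdx2::L2-IL-1β* nodules against 5.86, 5.80 and 5.80 in *L2-IL-1β* nodules. Samples 52541 and 52542 were higher than the *L2-IL-1β* samples and 52540 was lower, and the log2 fold change was 0.15 (SE 0.13, 95% interval -0.17 to 0.47, limma adjusted p = 0.689). Sis, Lct, Cdh17 and Ush1c all had means below the median level of 6.64. Calls of which probe sets were above background were not used here, so these readings do not show whether the RNAs were present.

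Anpep, the aminopeptidase N that removes amino acids from the ends of peptides, was besides Cdhr5 the only member whose genotypes did not overlap. It lies at chr7:86966689-86993096 (minus strand, NCBIM37). It read 10.65, 10.72 and 11.54 in *K14-Cdx2::L2-IL-1β* nodules against 10.44, 10.50 and 9.61 in *L2-IL-1β* nodules. The lowest *K14-Cdx2::L2-IL-1β* sample was 52540 and the highest *L2-IL-1β* sample 52544, and they lay close together. The means were 10.97 ± 0.49 in *K14-Cdx2::L2-IL-1β* nodules against 10.18 ± 0.50 in *L2-IL-1β* nodules (SD, n = 3 each), a log2 fold change of 0.79 (SE 0.32, 95% interval 0.01 to 1.56), or 1.72-fold. This did not pass the test over all probe sets (limma adjusted p = 0.357, unadjusted p = 0.0468, exact permutation p = 0.10). Without 52545 the log2 fold change was 0.50 (limma adjusted p = 0.634), and without 52542 it was also 0.50 (0.489). The *K14-Cdx2::L2-IL-1β* samples lay above the *L2-IL-1β* samples without overlap in 2 of the 9 members, against 8.3% of all probe sets. An unadjusted p under 0.05 was reached by 2 of the 9 members and by 13.7% of all probe sets.

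**Figure D2:**
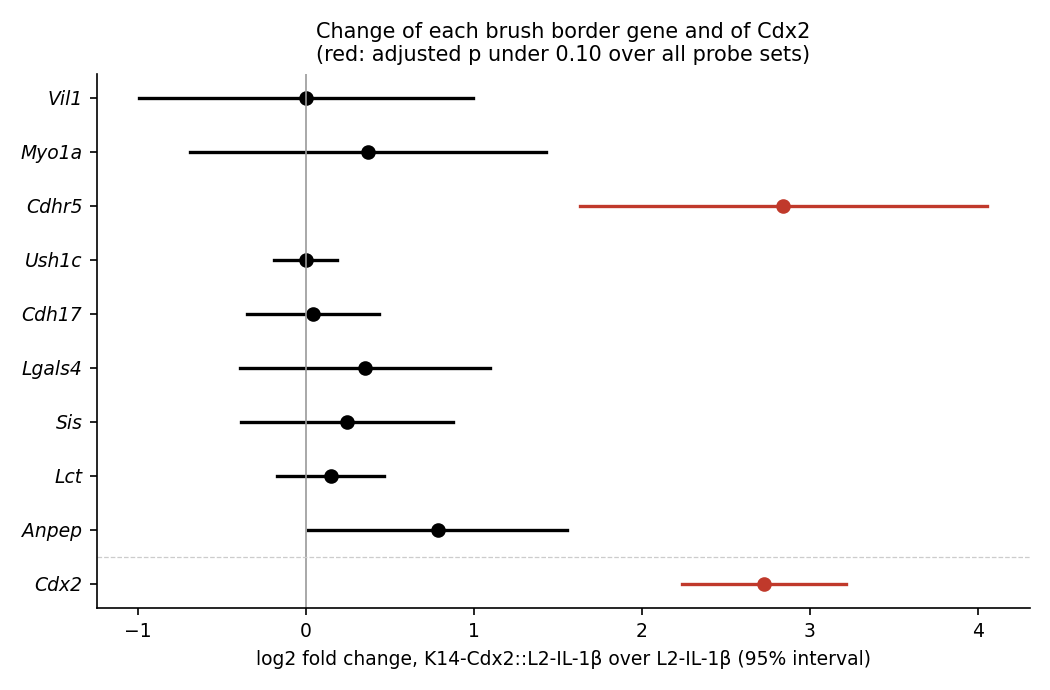
Log2 fold change of *K14-Cdx2::L2-IL-1β* over *L2-IL-1β* nodules (horizontal axis) for the 9 brush border genes and, below the dashed line, the transgene's own gene Cdx2; points are limma estimates from 3 samples against 3, lines their 95% intervals, and red marks an adjusted p under 0.10. Cdhr5 (2.84) and Cdx2 (2.73) stand to the right, and the interval of Anpep (0.01 to 1.56) begins near 0.

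Over the 9 members together, 1 was called higher, 0 lower and 8 neither, by limma at an adjusted p under 0.10, and no member other than Cdhr5 was called under any of the alternative settings. The median log2 fold change of the 9 was 0.24, and that of the 8 without Cdhr5 was 0.20, against -0.01 over all probe sets. A log2 fold change above 0 was found for 8 of the 9, Ush1c lying just under 0. Without sample 52542, however, 5 of the 9 were negative, among them Vil1 at -0.40 and Cdh17 at -0.15, while Cdhr5 was at 2.27.

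To set Cdhr5 against the other members directly, the log2 difference between Cdhr5 and each of the other 8 was taken within every array, which cancels whatever moved both probe sets alike in a sample. Cdhr5 was chosen for these pairs because it was the member called, so the differences describe the size of its excess and are no separate evidence of it. Relative to Vil1, it was higher by 2.69, 2.66 and 3.18 log2 units in *K14-Cdx2::L2-IL-1β* samples 52540, 52541 and 52542 than in the mean *L2-IL-1β* sample, against -0.06, -0.08 and 0.14 in the *L2-IL-1β* samples themselves. The SD among *K14-Cdx2::L2-IL-1β* samples was 0.29 for this difference, against 1.09 for the level of Cdhr5 itself. It was 0.24 relative to Myo1a, 0.52 relative to Lgals4 and between 0.66 (Anpep) and 1.03 (Ush1c) relative to the other 5. Relative to Myo1a, Cdhr5 was higher by 2.36, 2.32 and 2.75 log2 units in *K14-Cdx2::L2-IL-1β* samples, against -0.01, -0.14 and 0.16 in *L2-IL-1β* samples. Relative to Lgals4 it was higher by 2.15, 2.24 and 3.09 in *K14-Cdx2::L2-IL-1β* samples, against -0.03, 0.00 and 0.03 in *L2-IL-1β* samples. The mean excess was 2.06 log2 units over Anpep, the smallest of the 8, and 2.85 over Ush1c, the largest, or 4.17- to 7.19-fold. *K14-Cdx2::L2-IL-1β* samples overlapped *L2-IL-1β* samples in none of the 8 pairs, and the exact two-sided permutation p was 0.10 for each, the smallest possible and not under the threshold, and 0.10 after adjustment over the 8 pairs. The same Cdhr5 values enter all 8, so these are not independent comparisons.

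**Figure D3:**
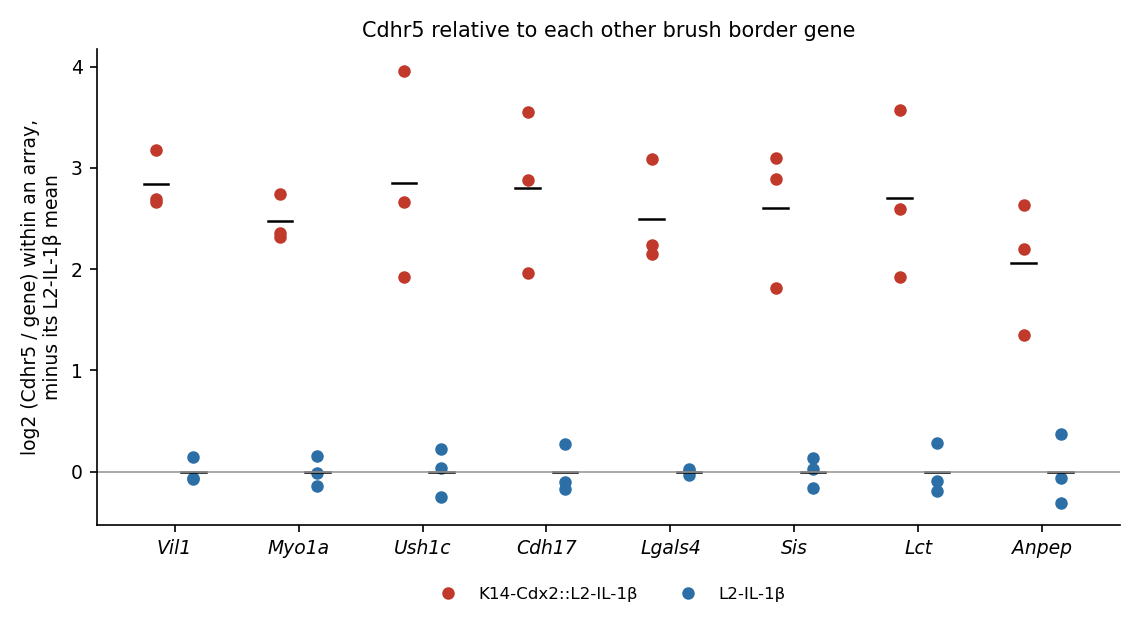
Within-array log2 ratio of Cdhr5 to each other brush border gene, less the mean of that ratio in *L2-IL-1β* samples (vertical axis), for 3 *K14-Cdx2::L2-IL-1β* samples (red, left of each pair) and 3 *L2-IL-1β* samples (blue, right); bars are group means. All red points lie above 1.3 and all blue points below 0.4, and the red points are closest together where Cdhr5 is set against Myo1a or Vil1.

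The members varied together between the *K14-Cdx2::L2-IL-1β* samples. Sample 52542 was the highest of all 6 in 8 of 9 members (the exception was Ush1c), compared with 23.7% of all named genes. Sample 52540 was the lowest of the *K14-Cdx2::L2-IL-1β* samples in 8 of 9 (the exception was Sis), compared with 36.8% of all named genes, and the lowest of all 6 in 6 of 9, compared with 20.8%. The SD was larger in *K14-Cdx2::L2-IL-1β* than in *L2-IL-1β* samples for 8 of 9 members (Anpep being the exception), as it was for 69.0% of all named genes. Within *L2-IL-1β* nodules, 52544 was the highest in 6 of the 9, and the share of all named genes with that order was not counted.

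Of 6 genes of columnar epithelium, the keratins Krt8, Krt18, Krt19 and Krt7 were, like most members, lowest in 52540 and highest in 52542 among *K14-Cdx2::L2-IL-1β* samples. Epcam had the same order within a narrow span (11.73, 11.87 and 11.97 in *K14-Cdx2::L2-IL-1β* samples against 12.11, 11.97 and 11.74 in *L2-IL-1β* samples). Cldn4 ran the other way, with 10.56, 10.36 and 9.82 in *K14-Cdx2::L2-IL-1β* samples against 10.45, 10.51 and 10.55 in *L2-IL-1β* samples. The mean level of the 6 was 10.8 to 11.4 in *K14-Cdx2::L2-IL-1β* samples and 10.7 to 11.1 in *L2-IL-1β* samples. This mean departed from its *L2-IL-1β* mean by -0.11, 0.27 and 0.56 log2 units in *K14-Cdx2::L2-IL-1β* samples 52540, 52541 and 52542, against -0.01, 0.21 and -0.20 in *L2-IL-1β* samples 52543, 52544 and 52545. None of the 6 columnar genes passed the test between genotypes. Set against this columnar mean within each array, the change of Cdhr5 was 2.60 log2 units, with 1.92, 2.46 and 3.43 in *K14-Cdx2::L2-IL-1β* samples against -0.04, 0.05 and -0.01 in *L2-IL-1β* samples. On that scale Vil1 stood at -0.24, Myo1a at 0.13, Lgals4 at 0.11 and Anpep at 0.54. The genotypes now barely overlapped for Anpep, by a near tie between *K14-Cdx2::L2-IL-1β* sample 52541 (0.26836) and *L2-IL-1β* sample 52543 (0.26925). Markers of pancreatic acinar cells were highest in 52542 for 17 of 18 genes, and the list's median departure from the *L2-IL-1β* mean was -0.04, 0.09 and 2.76 log2 units in *K14-Cdx2::L2-IL-1β* samples against 0.03, 0.04 and -0.06 in *L2-IL-1β* samples, with 0 of 18 passing the test. Their mean level was 7.09 to 9.69 in *K14-Cdx2::L2-IL-1β* samples and 7.01 to 7.32 in *L2-IL-1β* samples. Sycn, the gene of the zymogen granule protein syncollin, which is not in that list, read 10.15, 11.19 and 12.16 in *K14-Cdx2::L2-IL-1β* samples against 7.45, 8.12 and 6.65 in *L2-IL-1β* samples. The part of acinar tissue in the values of Cdhr5 was not tested. The mean level of parietal and chief cell genes was 11.5 to 12.4 in *K14-Cdx2::L2-IL-1β* samples and 9.69 to 11.5 in *L2-IL-1β* samples, with 0 of 6 passing. The lowest level was that of 52545. All 6 had log2 fold changes above 0 (median 1.28). *K14-Cdx2::L2-IL-1β* samples lay above *L2-IL-1β* samples without overlap in 4 of the 6, against 8.3% of all probe sets. Atp4a (1.36) and Gif (1.51) were among the 4. The part of glandular gastric tissue in the brush border values was not tested. Of 9 goblet cell genes 0 rose and 1 fell, against 0.576% and 1.26% of all probe sets. The gene that fell was Fcgbp (-0.98, limma adjusted p = 0.0708). The mean level of the 9 was 7.37 to 8.61 in *K14-Cdx2::L2-IL-1β* samples and 7.84 to 8.13 in *L2-IL-1β* samples. The defining mucin Muc2 read 6.85 to 7.17 in *K14-Cdx2::L2-IL-1β* samples and 6.87 to 7.18 in *L2-IL-1β* samples. Zg16 read 4.49, 4.62 and 9.34 in *K14-Cdx2::L2-IL-1β* samples against 4.68, 4.72 and 4.63 in *L2-IL-1β* samples. It was high in 52542 alone, as Cpa1 was, and the part of acinar tissue in it was not tested. Other defining markers were at 1.22 (Muc5ac) and 0.40 (Gkn1, both gastric surface), 0.94 (Chga, endocrine) and 0.85 (Lyz1, Paneth). Ptprc (leukocytes) was at -0.80, Col1a1 (fibroblasts) at -0.13, Myh11 (smooth muscle) at 0.75 and Pnlip (acinar) at 1.83. None passed, and only Ptprc, Myh11 and Pnlip had genotypes without overlap.

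**Figure D4:**
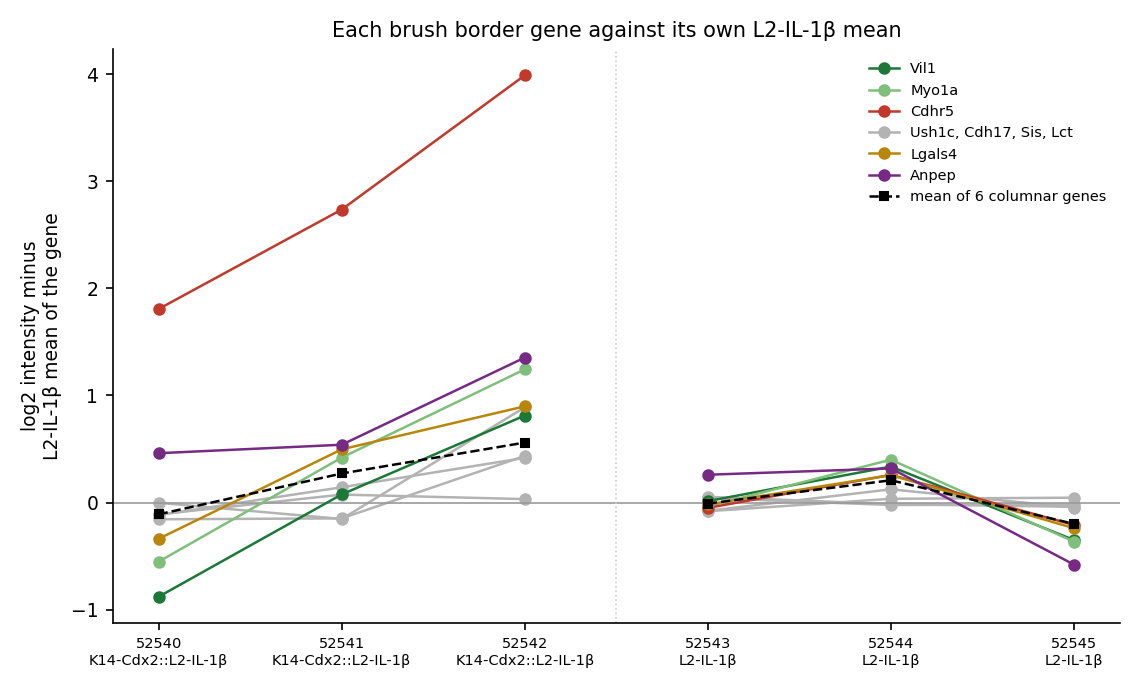
Log2 intensity of each brush border gene less its own *L2-IL-1β* mean (vertical axis) in each of the 6 samples, with the mean of 6 columnar genes as a dashed black line; lines join the values of 1 gene and imply no order of samples. Vil1, Myo1a, Lgals4 and the columnar mean share a profile that is lowest in 52540 and highest in 52542 among *K14-Cdx2::L2-IL-1β* samples, and Cdhr5 has the same order from a higher base (1.81 in 52540 to 3.99 in 52542).

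The 250 bases before the transcription start were examined for elements of the kind Cdx2 is known to bind, since the transgene supplies that factor. RefSeq promoter sequences (GRCm38.p6) matched 8 of the 9 members, Cdh17 being the other. TTTATG, searched on both strands (CATAAA on the reverse), occurred in 3 of the 8, namely Cdhr5, Sis and Lct, and in 10.8% of the 32851 promoter windows of the table. Its shorter core TTTAT (read as ATAAA on the reverse), which is also part of the TATA-box string TATAAA, occurred in the same 3, and in 37.3% of all windows. GTTAAT, an element of the kind Hnf1 binds, occurred in Sis alone of the 8, and in 6.43% of all windows. The 3 sequences with TTTATG are shown in the direction of transcription, since they place the gene that rose beside 2 that did not pass the test; capitals mark the longer and the shorter element on either strand. The element starts 39 bases before the start of Cdhr5, 43 before that of Sis and 31 before that of Lct.
Cdhr5, chr7:141276787-141277036, minus strand: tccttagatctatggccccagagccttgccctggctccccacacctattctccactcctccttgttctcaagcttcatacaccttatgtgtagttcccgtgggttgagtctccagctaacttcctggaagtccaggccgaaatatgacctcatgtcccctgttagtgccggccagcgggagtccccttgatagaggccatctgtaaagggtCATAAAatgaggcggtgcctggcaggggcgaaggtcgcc
Sis, chr3:72967864-72968113, minus strand: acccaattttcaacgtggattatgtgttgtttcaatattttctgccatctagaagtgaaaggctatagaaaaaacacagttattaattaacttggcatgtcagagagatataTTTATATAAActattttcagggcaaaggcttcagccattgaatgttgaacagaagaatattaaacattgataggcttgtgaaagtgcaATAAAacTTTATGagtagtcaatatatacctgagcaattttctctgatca
Lct, chr1:128328319-128328568, minus strand: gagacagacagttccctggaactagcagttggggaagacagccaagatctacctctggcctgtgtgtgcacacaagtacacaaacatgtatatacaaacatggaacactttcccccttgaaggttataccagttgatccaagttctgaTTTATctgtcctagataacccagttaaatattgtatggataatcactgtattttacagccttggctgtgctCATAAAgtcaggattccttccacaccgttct
The windows of Vil1, Myo1a, Ush1c, Lgals4 and Anpep held none of the 3 elements. In Sis, 2 of the 4 TTTAT matches lie within TATAAA. These matches describe letters in a window and not bound sites. The element was found in the gene that rose and in genes whose log2 fold changes were 0.24 (Sis) and 0.15 (Lct). Sis and Lct were dim, with means below the median level of 6.64. The part of the element in any of these values was not tested.

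The genes whose pattern over the 6 samples lay nearest that of Cdhr5 were found by the root mean square difference of gene-centred log2 values among 24638 named genes outside the members. They were Ifi27l2b (0.28 log2 units), a member of an interferon-inducible family, Cdx2 itself (0.45), Sycn (0.55), Tmem171 (0.61) and Azgp1 (0.65), a secreted zinc-binding glycoprotein. Ifi27l2b read 7.53, 7.80 and 9.15 in *K14-Cdx2::L2-IL-1β* nodules against 5.77, 5.74 and 5.16 in *L2-IL-1β* nodules (log2 change 2.60, limma adjusted p = 0.0619). The nearest member was Anpep (1.11), and 196 genes lay nearer to Cdhr5 than Anpep did. For the other members the number of nearer genes ran from 507 (Myo1a) to 9629 (Ush1c). Nearest the mean pattern of the other 8 members were Tspan13 (0.04), a tetraspanin, Arhgef16 (0.04), Grtp1 (0.05), Nceh1 (0.05), a cholesterol ester hydrolase, and the chloride channel Clcn2 (0.05). Tspan13 read 10.18, 10.61 and 11.28 in *K14-Cdx2::L2-IL-1β* nodules against 10.47, 10.60 and 10.27 in *L2-IL-1β* nodules, again lowest in 52540 and highest in 52542.

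Beyond the members, 107 genes of the enterocyte surface and its regulators were followed in 7 lists. Of these, 3 passed the test as higher (2.80%, with Cdx2 among them), 4 as lower (3.74%) and 100 did not pass, and their median log2 fold change was 0.06. The shares for all probe sets were 0.576% and 1.26%. Those shares include the many dim probe sets. In the fit without probe sets of means below 6.64, 258 of 17183 were called higher and 493 lower. Of the pathway genes, 3 were called higher and 5 lower in that fit. The lists were written with the study's own lists of changed genes in view, so these counts are not independent evidence of direction.

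The microvillus core had 2 of 15 genes higher and none lower (median 0.11). Cobl, cordon-bleu, an actin nucleator of the brush border, read 10.16, 9.90 and 9.70 in *K14-Cdx2::L2-IL-1β* nodules against 9.27, 9.09 and 9.11 in *L2-IL-1β* nodules (log2 change 0.76, SE 0.13, limma adjusted p = 0.0634). Espn, the actin cross-linker espin, read 8.60, 8.63 and 8.35 in *K14-Cdx2::L2-IL-1β* nodules against 7.95, 7.96 and 7.80 in *L2-IL-1β* nodules (0.62, SE 0.10, limma adjusted p = 0.0579). Cobl was highest in 52540 and both genes were lowest among *K14-Cdx2::L2-IL-1β* samples in 52542, opposite to Vil1 and Myo1a. Pls1, intestinal plastin, had a log2 fold change of 0.77 with overlapping groups (SE 0.39, adjusted p = 0.456). The adapter Slc9a3r2 was at 0.46 (adjusted p = 0.409) and the membrane-bending protein Baiap2l1 at 0.43 (0.366).

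None of 17 other brush border hydrolases passed, and their median was 0.00. The intestinal alkaline phosphatases stood out by 1 sample: Alpi read 5.91, 6.22 and 9.50 in *K14-Cdx2::L2-IL-1β* samples 52540, 52541 and 52542 against 6.29, 6.44 and 6.50 in *L2-IL-1β* samples. Akp3 read 5.24, 5.07 and 9.04 in *K14-Cdx2::L2-IL-1β* nodules against 5.29, 5.63 and 5.44 in *L2-IL-1β* nodules. Both were high in 52542, the sample with high readings of acinar genes, and lay below every *L2-IL-1β* sample in 52540 and 52541. The part of acinar or other tissue in the readings of Alpi and Akp3 was not tested. These 2 genes are close relatives, and how far each probe set also reads the other was not tested. Mgam, maltase-glucoamylase, the relative of Sis, had a log2 fold change of -0.63 (SE 0.28, adjusted p = 0.394).

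Among 26 apical transporters, 0 rose and 3 fell (median -0.03). Slc5a8, a sodium-coupled carrier of short-chain fatty acids, read 9.22, 9.21 and 8.45 in *K14-Cdx2::L2-IL-1β* nodules against 10.99, 10.95 and 10.94 in *L2-IL-1β* nodules (log2 change -2.00, SE 0.21, limma adjusted p = 0.0265). The amino acid carriers Slc6a14 (-1.51, SE 0.17, limma adjusted p = 0.0290) and Slc1a1 (-1.51, SE 0.23, 0.0579) also fell. The phosphate carrier Slc34a2 was at -1.01 (adjusted p = 0.404) and the glucose carrier Slc5a1 at -0.93 (0.127), each with all *K14-Cdx2::L2-IL-1β* samples below all *L2-IL-1β* samples, and the sodium-proton exchanger Slc9a2 was at 0.77 (0.468) with overlapping groups. Among markers of other cells, 2 of 10 leukocyte genes fell (S100a8 at -1.72, limma adjusted p = 0.0212, and S100a9 at -1.90, 0.00687), against 1.26% of all probe sets. The median log2 fold change of the leukocyte list was -0.67. Its mean level was 8.41 to 8.89 in *K14-Cdx2::L2-IL-1β* samples and 9.32 to 9.51 in *L2-IL-1β* samples. Of 15 squamous genes 1 fell, the basal keratin Krt14 (-0.57, limma adjusted p = 0.0416), with a mean level of 12.4 to 12.7 in *K14-Cdx2::L2-IL-1β* samples and 12.6 to 12.7 in *L2-IL-1β* samples. The part of these cells in the falls of the transporters and of Tmigd1 was not tested. In the list of intestinal surface and adhesion genes 1 of 15 fell and none rose (median -0.08). It was Tmigd1, an adhesion molecule of the immunoglobulin superfamily, at 8.68, 8.77 and 8.11 in *K14-Cdx2::L2-IL-1β* nodules against 10.23, 9.88 and 9.82 in *L2-IL-1β* nodules (-1.46, SE 0.20, limma adjusted p = 0.0470). In the same list Lgals2 was at 0.93 (adjusted p = 0.361), Ceacam1 at -0.58 (0.301) and Tspan8 at 0.50 (0.631).

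Of 13 genes of fat absorption none passed (median 0.19), the largest differences being those of the apolipoproteins Apoa4 (1.35, adjusted p = 0.280) and Apob (0.91, 0.261) and the fatty acid receptor Cd36 (0.96, 0.159). Of 17 regulators only Cdx2 passed, although 14 of the 17 had log2 fold changes above 0 (median 0.46). The endodermal factors Gata6 (0.95, adjusted p = 0.381), Gata4 (0.89, 0.426) and Foxa3 (0.75, 0.467) had the largest values after Cdx2, each with overlapping groups, and 12 of the 17 were highest in 52542. The 27 structural relatives of the members included other cadherins, gelsolin-family proteins, class I myosins, galectins and aminopeptidases. Of these relatives 0 rose and 1 fell (median 0.04), against 0.576% and 1.26% of all probe sets. It was Scin, an actin-severing relative of villin (-0.87, SE 0.12, limma adjusted p = 0.0488). The protocadherin Cdhr1, the relative of Cdhr5, was at -1.39 (adjusted p = 0.106), Lgals9 at 0.70 (0.457) and Myo1g, a myosin of blood cells, at -0.65 (0.169). Without *L2-IL-1β* sample 52543 none of the 3 higher and 4 lower pathway genes was called, and Cobl and Espn were called only when 52540 or 52542 was the sample left out. Without 52544 none of the 4 lower genes was called, and Scin lost its call without 52541 or any single *L2-IL-1β* sample.

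**Figure D5:**
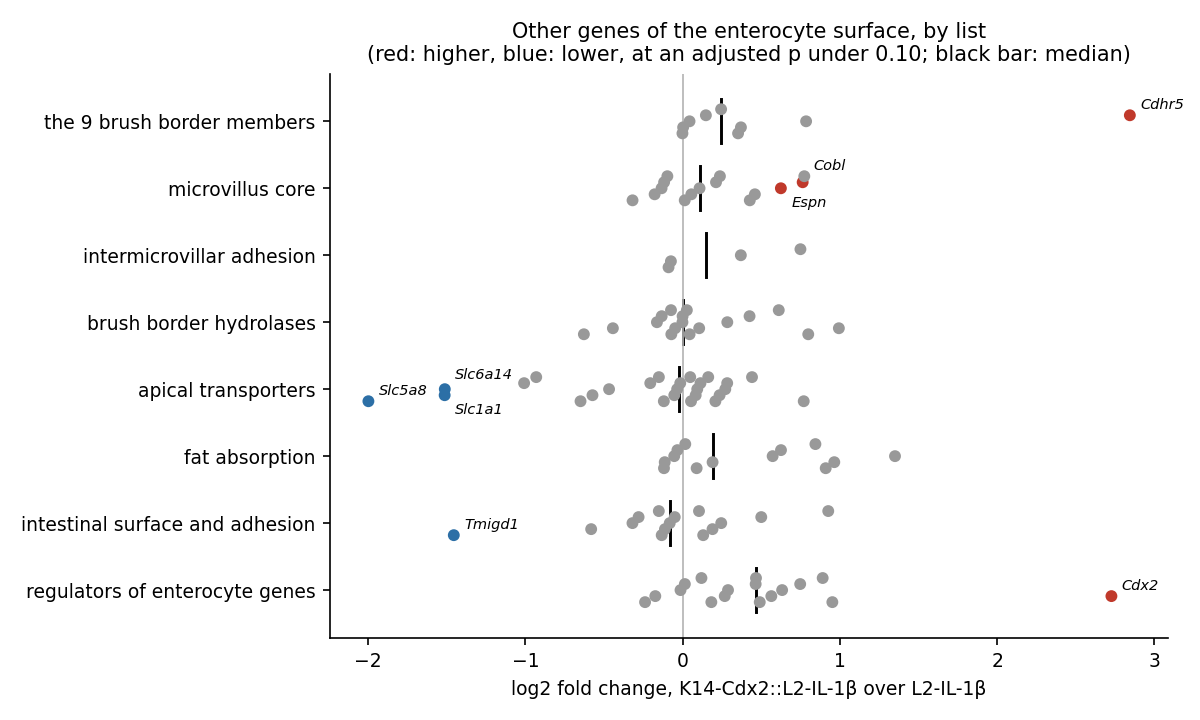
Log2 fold change of *K14-Cdx2::L2-IL-1β* over *L2-IL-1β* nodules (horizontal axis) for the 9 brush border genes (top row) and for the 107 other genes in 7 lists (rows); each point is a gene, black bars are medians, red and blue mark genes called higher and lower by limma at an adjusted p under 0.10. Cdhr5 is the only red point of the top row, and the blue points are 3 apical transporters and Tmigd1.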

How the data were processed

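Total RNA was run on Affymetrix arrays, and the values used are the log2 intensities that the authors deposited, without further normalization in the main fit. The sources used here do not give the summarisation, normalization or software, and the methods and the design text name different array versions. The submitters' notes name the build mm8. The authors' ratio, fold change, score and p-value columns were deposited beside them and not used. The 2 deposited tables of array values were identical.

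All 34365 probe sets were compared between genotypes with limma 3.58.1 in R 4.3.3 (lmFit, eBayes, 2.59 prior degrees of freedom), genotype being the only term, with Benjamini-Hochberg adjustment over all of them and calls at an adjusted p under 0.10. Of these, 631 were called (198 higher, 433 lower). For a gene with several probe sets, that of highest mean was used. Single genes and within-array differences were compared by exact two-sided permutation tests. The members and gene lists were chosen with earlier results of these data known. Genes named were all members, Cdx2, every gene of the pathway and relatives lists that passed with up to 3 more per list by absolute log2 fold change, defining cell type markers, and the 5 nearest genes of each pattern; Krt7, Krt19, Epcam, Cldn4, Fcgbp, Zg16, Krt14, S100a8 and S100a9 were named after their values were seen. Of 228 list entries 1 was not found and 1 was found under another symbol. The fit was tested on simulated data. Alternatives were median centring, quantile normalization, leaving out probe sets with means below 6.64, eBayes with trend and robust, array weights, SAM rebuilt with 20 relabellings (added constant 0.0336), stricter thresholds, averaging the probe sets of a gene, and leaving out each sample. Setting each member against the mean of 6 columnar genes was added after seeing the data. Promoter sequences came from RefSeq (GRCm38.p6). Precision is limited by the number of arrays. The other software was Python 3.11.15 with pandas 2.3.3, numpy 2.4.6, matplotlib 3.10.9 and scipy 1.17.1.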

Additional observations from a re-analysis of the deposited data

How the results depend on the processing

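Cdhr5 kept its direction under all 13 alternatives (log2 fold change 2.27 to 3.36) and was called in 9 of them; the exceptions were the settings without 52541, 52543, 52544 or 52545. Called members numbered 0 at an adjusted p under 0.05, and 0 to 1 when a sample was left out. Pathway genes called higher numbered 1 at an adjusted p under 0.05, 1 with a 2-fold limit, and 0 to 4 when a sample was left out, and those called lower 0 to 6. Over all probe sets, leaving out a sample gave 13 (without 52543) to 2026 (without 52540) calls, array weights 1528 and SAM 1652, against 631. The cause was not tested. Cdx2 lost its call without 52543 (log2 fold change 2.70, limma adjusted p = 0.110).

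Signs turned where changes were near 0. Vil1 was at -0.0038 after quantile normalization, -0.24 relative to 6 columnar genes and -0.40 to 0.44 when a sample was left out. Ush1c was at 0.038 with array weights, 0.0091 with median centring, 0.0092 after quantile normalization and -0.042 to 0.053 when a sample was left out. Cdh17 was at -0.030 with array weights, -0.20 relative to columnar genes and -0.15 to 0.14 when a sample was left out. Lct was at -0.093 relative to columnar genes. The ranges over left-out samples were -0.066 to 0.83 for Myo1a and -0.078 to 0.44 for Sis. No paired analysis was possible because samples carry no number shared between genotypes. With 3 samples per genotype, a doubling of Myo1a lies within its interval.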
